A study of Mus musculus with 16 samples.

Results

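The miRNAs described here are the vascular miRNAs of the lateral ventricle (LV) wall: both arms of the miR-126a hairpin, miR-143-3p, and both arms of the miR-145a hairpin. They were taken by name, each as an exact match of the miRNA name on the array, and are 5 of the 1881 mature mouse miRNAs on the array. Their full names are mmu-miR-126a-3p, mmu-miR-126a-5p, mmu-miR-143-3p, mmu-miR-145a-5p and mmu-miR-145a-3p. MiR-126a is the classical miRNA of endothelial cells, which line every vessel, whereas miR-143 and miR-145a are the classical miRNAs of mural cells, the smooth muscle cells and pericytes that wrap the vessel.

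The series compared the LV walls of WT littermates (8 mice) and Dgcr8+/- mice (8 mice), all male and 8 months old, with 1 mouse per array. Dgcr8+/- mice lack 1 copy of Dgcr8, a gene of the interval deleted in 22q11 deletion syndrome, in every cell, and the strain was backcrossed onto C57BL/6J. The study used the arrays to look for miRNAs that change with Dgcr8 dosage in the tissue that carries the ciliated ependymal cells. The LV wall is a mixture of ependyma, neurons, glia and vessels, so a vascular miRNA was measured here in bulk tissue. A miRNA array does not read the Dgcr8 mRNA, so the genotype labels were not checked by the deleted gene.

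Dgcr8 is the RNA-binding partner of the nuclease Drosha, and together they crop the hairpin out of a primary transcript. Dicer then cuts the loop, and either arm of the resulting duplex, named 5p or 3p, can be loaded into an Argonaute protein, where the seed near its 5′ end pairs with target mRNAs. In endothelium, miR-126 dampens Spred1 and Pik3r2, inhibitors of the response to vascular endothelial growth factor, whereas miR-143 and miR-145 favor the contractile state of smooth muscle by dampening factors such as Elk1 and Klf4.

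In the RefSeq gene table for GRCm38.p6, Mir126a lies on chromosome 2 within Egfl7, an endothelial gene whose intron holds the hairpin. Mir126b lies at the same place on the other strand. Mature sequences were found in the RefSeq-based table for 1 of the 5 miRNAs, miR-126a-3p, and are shown with those of the antisense hairpin because the 2 hairpins are read from opposite strands of 1 stretch of DNA and the array has probes for both. Capitals mark the seed, bases 2 to 8 from the 5′ end, and each sequence is written 5′ to 3′.
mmu-miR-126a-3p: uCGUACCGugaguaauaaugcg
mmu-miR-126b-5p: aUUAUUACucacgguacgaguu
mmu-miR-126b-3p: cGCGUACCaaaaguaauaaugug

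MiR-126a-3p comes from chr2:26591402-26591423 on the plus strand, miR-126b-5p from chr2:26591399-26591420 on the minus strand and miR-126b-3p from chr2:26591363-26591385 on the minus strand (GRCm38.p6). MiR-126a-3p and miR-126b-5p overlap by 19 bases and are antisense there. Their seeds differ, and each of these 3 seeds was held by 1 of the 1679 mature names in the table. On the arrays, the software detected miR-126a-3p in all 16 mice, whereas miR-126b-5p and miR-126b-3p were detected in 0 of 16.

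The products of these loci fell into detected and undetected arms. Mir143 and Mir145a lie together on chromosome 18 within Carmn, a noncoding gene of smooth muscle. MiR-126a-3p, miR-126a-5p, miR-143-3p and miR-145a-5p were each detected on all 16 arrays, with 2 probes each. MiR-145a-3p, the other arm of the miR-145a hairpin, was detected on 0 of 16 arrays although it had 4 probes. MiR-143-5p and miR-145b, from the same cluster region, were also detected on 0 of 16 arrays. These undetected miRNAs have only an upper bound set by the background and were not tested, so that 4 of the 5 miRNAs entered the comparison. With 1 detected arm at each mural hairpin, the arms could be compared for miR-126a alone.

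Signals were quantile-normalized, and the 495 miRNAs detected in 8 or more of the 16 mice were tested. Of the 2 slides, the first carried 6 WT and 2 Dgcr8+/- mice and the second the reverse, 2 WT and 6 Dgcr8+/- mice. The arrays of Dgcr8+/- mice were dimmer, with 467 to 492 detected miRNAs compared to 495 to 540 in WT mice. One array stood apart. Dgcr8+/- replicate 2, on slide 1, had the lowest log2 signal of the hybridization spike-ins, 12.7 compared to 13.9 to 15.1 on the other 15 arrays, and the array weight fitted to it was 0.0632 compared to 0.522 to 2.13 on the others. Results that rest on it are given with and without it. A positive log2 fold change means more signal in Dgcr8+/- mice, and each is given with its standard error (SE) and with the adjusted p from limma, corrected over the 495 miRNAs by the Benjamini-Hochberg method.

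After quantile normalization, miR-126a-5p and miR-143-3p were higher in Dgcr8+/- mice, 1.12-fold and 1.16-fold, although both were lower before it. MiR-145a-5p was at 1.12-fold without passing the threshold, and miR-126a-3p, the strand best known in endothelium, was at 1.00-fold but passed downward before normalization (log2 fold change -0.45, adjusted p = 0.0122 from limma). MiR-126a-5p also passed downward before normalization (-0.35, adjusted p = 0.0151 from limma), whereas miR-143-3p did not (-0.25, adjusted p = 0.0928). Thus after quantile normalization 2 of the 4 tested miRNAs passed an adjusted p of 0.05 from limma, both upward. Of all 495 tested miRNAs 56.2% passed, 28.3% upward and 27.9% downward, so changes of this kind were common on these arrays. In bulk tissue, fewer cells of a type and less RNA per cell cannot be told apart.

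In WT mice, the log2 signal of miR-126a-3p was 10.49 at the lowest, 10.56 at the median and 10.62 at the highest, and in Dgcr8+/- mice it was 10.30, 10.58 and 10.69, respectively. The ranges overlapped, 2 of 8 Dgcr8+/- mice lay above every WT mouse, and the lowest value was that of Dgcr8+/- replicate 2, the other mice of its genotype lying between 10.51 and 10.69. The means were 10.56 ± 0.05 (SD, n = 8) and 10.56 ± 0.12 (SD, n = 8), a log2 fold change of 0.0036 (SE 0.05, adjusted p = 0.956 from limma). The 95% confidence interval of the difference ran from -0.11 to 0.11, and without replicate 2 the log2 fold change was 0.041. After quantile normalization, miR-126a-3p was among the steadier miRNAs of the array, since 14.3% of the tested miRNAs had a smaller pooled SD within genotype. Before it, the log2 signal of miR-126a-3p ran from 10.40 to 11.14 in WT and from 9.55 to 10.63 in Dgcr8+/- mice.

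For miR-126a-5p, the arm that in endothelium is known to dampen the Notch inhibitor Dlk1, the WT mice had a lowest log2 signal of 6.57, a median of 6.72 and a highest of 6.81. The Dgcr8+/- mice had 6.72, 6.85 and 7.10, respectively. Here 5 of 8 Dgcr8+/- mice lay above every WT mouse and 7 of 8 above the WT median, so the groups overlapped in the low Dgcr8+/- values. Mean signals were 6.70 ± 0.08 (SD, n = 8) in WT and 6.86 ± 0.12 (SD, n = 8) in the other genotype, for a log2 fold change of 0.16 (SE 0.06, adjusted p = 0.0193 from limma). The difference between the means was 0.28 on slide 1, which held Dgcr8+/- replicate 2, and 0.09 on slide 2. That mouse had the highest value, 7.10, and without it the log2 fold change was 0.13 (adjusted p = 0.0179 from limma). By probe, the log2 fold change was 0.18 (SE 0.05, adjusted p = 0.00673 from limma over 1162 probes) for the brighter probe and 0.088 (SE 0.09, adjusted p = 0.466) for the dimmer one. Whether the 2 probes differed was not tested.

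MiR-143-3p, the detected arm of the first mural hairpin, had a lowest WT log2 signal of 6.45, a median of 6.70 and a highest of 6.79. In Dgcr8+/- mice these were 6.51, 6.88 and 7.16. The groups overlapped at the low end, where Dgcr8+/- replicate 3 had 6.51, whereas 5 of 8 Dgcr8+/- mice exceeded every WT mouse. Mean signals were 6.67 ± 0.12 (SD, n = 8) in WT and 6.89 ± 0.22 (SD, n = 8) in the other genotype, for a log2 fold change of 0.22 (SE 0.09, adjusted p = 0.0386 from limma), with 0.31 on slide 1 and 0.20 on slide 2. This call was near the threshold: it was lost when 1 mouse was left out for 8 of the 16 mice, with adjusted p from limma between 0.0556 and 0.0769. Those mice were WT replicates 2 (log2 fold change 0.22), 3 (0.20), 7 (0.22) and 8 (0.19) and Dgcr8+/- replicates 1 (0.21), 2 (0.18), 4 (0.20) and 7 (0.18).

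MiR-145a-5p, made from the same primary transcript as miR-143, was the dimmest of these miRNAs that could be tested. Its log2 signal in WT mice was 4.87 at the lowest, 5.06 at the median and 5.25 at the highest, and in Dgcr8+/- mice 4.97, 5.21 and 5.68. The highest value was again that of Dgcr8+/- replicate 2, and 4 of 8 Dgcr8+/- mice lay above every WT mouse. The means were 5.06 ± 0.12 (SD, n = 8) and 5.22 ± 0.24 (SD, n = 8), a log2 fold change of 0.16 (SE 0.09, 95% confidence interval -0.03 to 0.36, adjusted p = 0.131 from limma). Without replicate 2 the log2 fold change was 0.10. None of the 4 miRNAs separated the genotypes fully, compared to 24.2% of all tested miRNAs whose groups did not overlap.

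**Figure D1:**
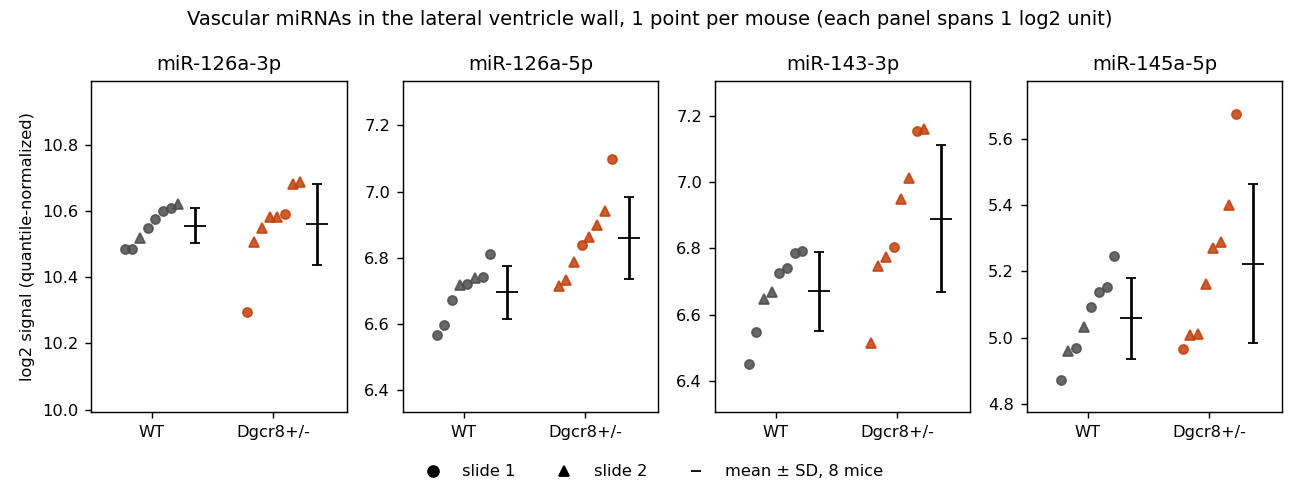
Log2 signal after quantile normalization (vertical axis) of miR-126a-3p, miR-126a-5p, miR-143-3p and miR-145a-5p in the LV wall, with 1 point per mouse, circles for slide 1, triangles for slide 2, and the mean ± SD of 8 mice per genotype beside the points. MiR-126a-3p had the same mean in both genotypes, 10.56, with Dgcr8+/- replicate 2 at 10.30, whereas the means of the other 3 were higher in Dgcr8+/- mice by 0.16 to 0.22 (before normalization between arrays all 4 were lower, miR-126a-3p by 0.45 and the others by 0.21 to 0.35).

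The direction of these shifts depended on how the arrays were scaled against each other, as the plot of scalings shows. Without normalization between arrays, the middle of the 495 log2 fold changes was at -0.39, 59.2% passed downward, and the 4 vascular miRNAs all had negative values: -0.45 for miR-126a-3p (adjusted p = 0.0122 from limma), -0.35 for miR-126a-5p (adjusted p = 0.0151), -0.25 for miR-143-3p (adjusted p = 0.0928) and -0.21 for miR-145a-5p (adjusted p = 0.101). Scaling to the labeling spike-ins, RNAs added to each sample before labeling, gave nearly the same values, from -0.44 for miR-126a-3p to -0.20 for miR-145a-5p. Their place among all tested miRNAs moved less. Measured from the median of all tested miRNAs, miR-143-3p was higher by 0.18 after quantile normalization and by 0.14 before it, and miR-145a-5p by 0.13 and 0.18, respectively. MiR-126a-5p was higher than that median by 0.13 after quantile normalization and by 0.04 before it, whereas miR-126a-3p was at -0.03 and -0.06. By rank after quantile normalization, 45.3% of the tested miRNAs had a lower log2 fold change than miR-126a-3p, 63.6% than miR-126a-5p, 70.5% than miR-143-3p and 64.0% than miR-145a-5p. Without normalization between arrays these shares were 44.4%, 51.9%, 63.4% and 67.1%, respectively. After quantile normalization all 4 therefore lay in the middle of the distribution, inside its quartiles of -0.27 and 0.27.

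**Figure D2:**
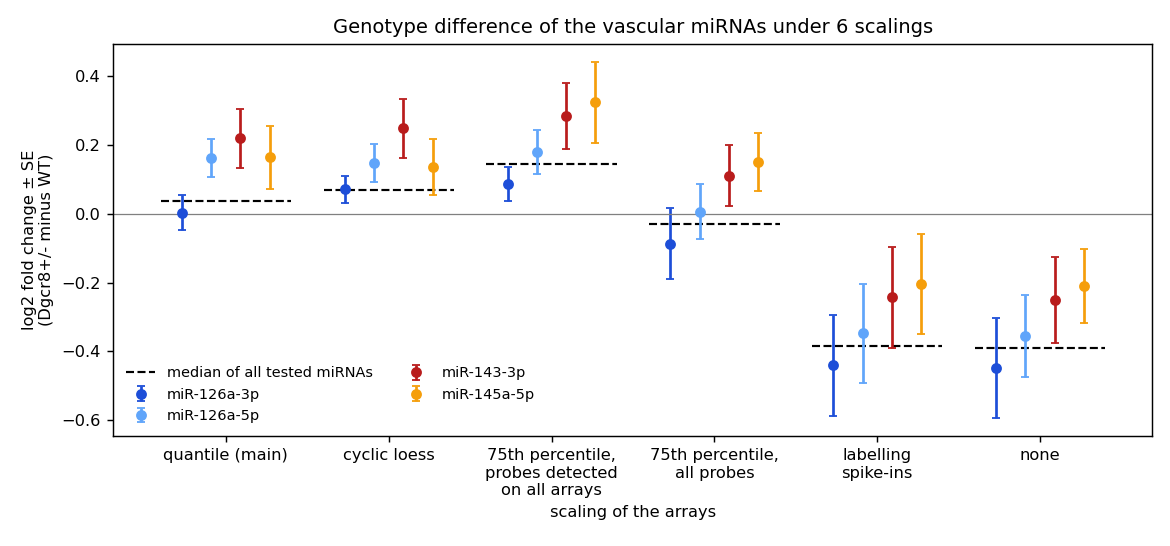
Log2 fold change ± SE (vertical axis, Dgcr8+/- minus WT, 8 mice per genotype) of the 4 tested vascular miRNAs under 6 ways of scaling the arrays (horizontal axis), with a dashed line at the median of all tested miRNAs under each. The values move with the dashed line, which goes from 0.04 after quantile normalization to -0.39 with none. MiR-126a-5p, miR-143-3p and miR-145a-5p lie above it under each of the 6, whereas miR-126a-3p lies above it only with cyclic loess, by 0.002.

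Whether 2 vascular miRNAs shifted by different amounts was tested on the difference of their log2 signals within each mouse. The difference removes a scaling factor common to an array, but quantile normalization is not such a factor and can still change it. Probes of different miRNAs differ in brightness for the same amount of RNA, so only the change of this difference between genotypes is read. For the 2 arms of miR-126a, the 5p arm minus the 3p arm had a WT mean of -3.86 ± 0.07 (SD, n = 8) and a Dgcr8+/- mean of -3.70 ± 0.21 (SD, n = 8). The arm difference shifted by 0.16 toward the 5p arm (2-sided exact permutation test, p = 0.0157, adjusted p = 0.0942 over 6 pairs), with 0.39 on slide 1 and 0.07 on slide 2. Of 8 Dgcr8+/- mice 3 lay above every WT mouse, the farthest being replicate 2 at -3.20, and without that mouse the shift was 0.088. It passed the adjusted threshold when WT replicate 5 (0.18), Dgcr8+/- replicate 3 (0.18) or Dgcr8+/- replicate 6 (0.18) was left out. Among the 80 hairpins with both arms tested, the size of the miR-126a shift ranked 31, with a median size of 0.098. All these values are after quantile normalization. Without normalization between arrays the arm shift was 0.093 (exact permutation test, p = 0.324), and with cyclic loess it was 0.076 (exact permutation test, p = 0.256).

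The mural miRNAs were next set against the endothelial ones. MiR-143-3p minus miR-126a-3p shifted by 0.22 (exact permutation test, p = 0.065, adjusted p = 0.195), by 0.14 without Dgcr8+/- replicate 2, and by 0.27 without Dgcr8+/- replicate 3, which was past the adjusted threshold. MiR-145a-5p minus miR-126a-3p shifted by 0.16 (exact permutation test, p = 0.245, adjusted p = 0.472), and by 0.059 without Dgcr8+/- replicate 2. Against miR-126a-5p the shifts were 0.06 for miR-143-3p (exact permutation test, p = 0.4, adjusted p = 0.479) and 0.0015 for miR-145a-5p (p = 0.984 both before and after adjustment). The cluster partners themselves, miR-145a-5p minus miR-143-3p, differed by -0.06 (exact permutation test, p = 0.315, adjusted p = 0.472). None of the 6 pairs passed after adjustment over all 16 mice (1 of them, the miR-126a arms, had an unadjusted p under 0.05).

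**Figure D3:**
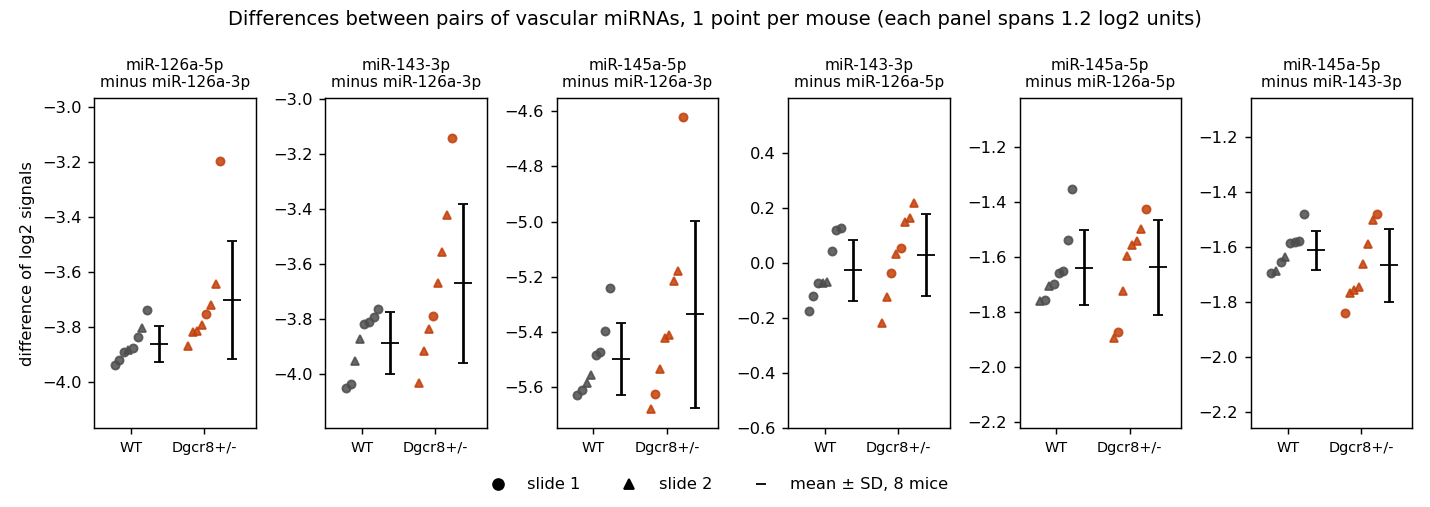
Difference of 2 log2 signals within each mouse (vertical axis, log2 units, each panel spanning 1.2) for the 6 pairs of tested vascular miRNAs, with 1 point per mouse, circles for slide 1, triangles for slide 2, and mean ± SD of 8 mice per genotype. The shift between genotypes ranged from -0.06 for miR-145a-5p minus miR-143-3p to 0.22 for miR-143-3p minus miR-126a-3p, with 3 panels that hold miR-126a-3p showing Dgcr8+/- replicate 2 as the highest point.

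Covariation across mice was measured on log2 signals centered on the genotype means, so that the genotype difference itself cannot make a correlation. The cluster partners miR-143-3p and miR-145a-5p moved together most closely of the 6 pairs. Pearson's r was 0.84 over 16 mice (permutation test within genotype, p = 0.00053, adjusted p = 0.00318 over 6 pairs) and Spearman's rho was 0.80 (permutation p = 0.00138, adjusted p = 0.00828). Leaving out the 2 mice farthest from the median of miR-143-3p, Dgcr8+/- replicate 3 and WT replicate 8, gave r = 0.84, and leaving out Dgcr8+/- replicate 2 gave r = 0.82 (permutation, adjusted p = 0.00318). Within slides r was 0.88 on slide 1 (exact permutation p = 0.0208, adjusted p = 0.125) and 0.90 on slide 2 (exact permutation p = 0.0167, adjusted p = 0.1). The r was thus similar on both slides, but neither passed the adjusted threshold. Within the genotypes, the pair had r = 0.83 and rho = 0.76 in WT mice (exact permutation p = 0.0102 for r, adjusted p = 0.061 over 12 relations) and r = 0.84 and rho = 0.74 in Dgcr8+/- mice (exact permutation p = 0.0100, adjusted p = 0.061). In WT mice, leaving out the 2 farthest, replicates 3 and 8, lowered r from 0.83 to 0.59 (exact permutation p = 0.214). In Dgcr8+/- mice r was 0.90 without the 2 farthest (exact permutation p = 0.0167).

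Each of these mural miRNAs was the other's closest partner among the 494 other tested miRNAs. As a description, their r was higher than that of 97.7% of the 122265 pairs of tested miRNAs, whose r had a median of -0.01 and 5th and 95th percentiles of -0.73 and 0.77. Without Dgcr8+/- replicate 2 these percentiles narrowed to -0.58 and 0.65, and the pair stood above 99.1% of all pairs. Correlations of miRNAs across these arrays were thus wide in general, and the points share array brightness and normalization.

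For the arms of miR-126a, no relation passed the test over all mice. Their r was -0.26 (permutation test, p = 0.398, adjusted p = 0.478) and rho was 0.14 (permutation p = 0.61, adjusted p = 0.732). This value rested on Dgcr8+/- replicate 2, which had the lowest miR-126a-3p and the highest miR-126a-5p: without it r was 0.55 (permutation p = 0.0435, adjusted p = 0.0871), and without replicates 2 and 8 of the same genotype it was 0.41. On slide 1, which held replicate 2, r was -0.35, and on slide 2 it was 0.52. In WT mice r was 0.59 (exact permutation p = 0.134, adjusted p = 0.268 over 12 relations), but -0.38 without WT replicates 6 and 8. In Dgcr8+/- mice it was -0.51 (exact permutation p = 0.194, adjusted p = 0.333), and 0.40 without replicates 2 and 8. Without normalization between arrays, where the brightness of an array enters both arms, r was 0.85 and passed the adjusted threshold. Among the 80 hairpins with both arms tested, the median r between arms was 0.41 and miR-126a ranked 65. Without replicate 2 the median was 0.48 and miR-126a ranked 34.

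**Figure D4:**
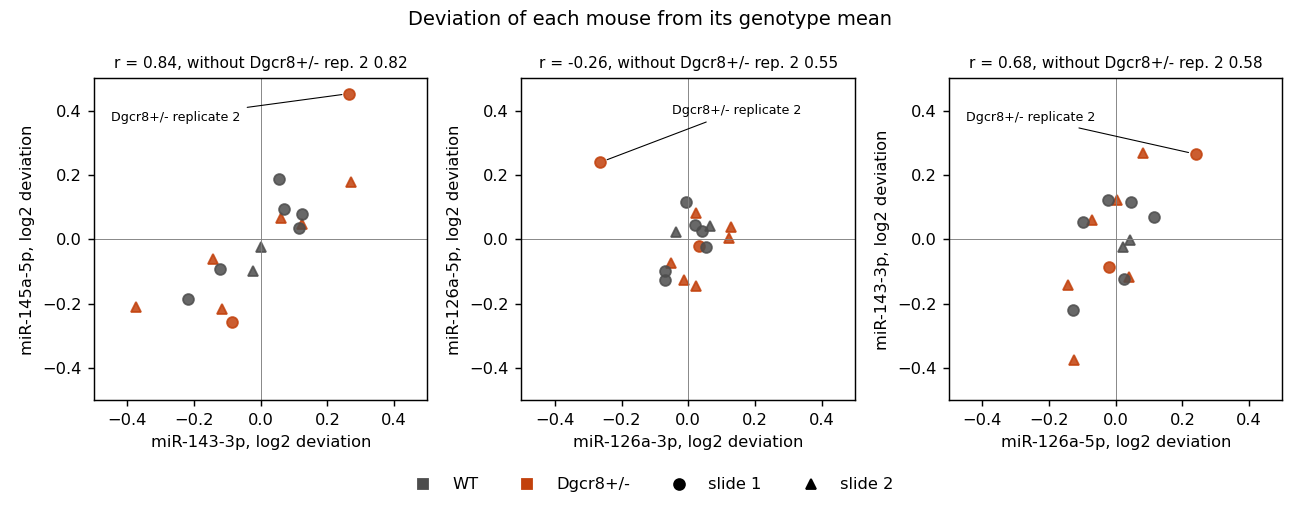
Deviation of each mouse from its genotype mean (both axes, log2 units) for miR-145a-5p against miR-143-3p, miR-126a-5p against miR-126a-3p, and miR-143-3p against miR-126a-5p, with gray points for WT, orange points for Dgcr8+/-, circles for slide 1 and triangles for slide 2. The mural pair follows a line with or without Dgcr8+/- replicate 2 (r = 0.84 and 0.82), whereas the r of the miR-126a arms goes from -0.26 to 0.55 when that mouse is left out.

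Between vessel layers, miR-126a-5p and miR-143-3p had r = 0.68 (permutation test, p = 0.0109, adjusted p = 0.0327) and rho = 0.62 (permutation p = 0.0178, adjusted p = 0.0535). As a description, this r was higher than that of 90.9% of all pairs of tested miRNAs, and under their 95th percentile of 0.77. Without Dgcr8+/- replicate 2 the pair stood above 92.6% of all pairs. Within slides r was 0.69 on slide 1 and 0.72 on slide 2, and without the 2 mice farthest on the miR-126a-5p axis it was 0.56. This call was lost when WT replicate 8 (r = 0.63) or Dgcr8+/- replicate 2 (0.58), 3 (0.62), 5 (0.68), 6 (0.66) or 7 (0.66) was left out, with permutation adjusted p from 0.0507 to 0.0871. The r was 0.76 in Dgcr8+/- mice (exact permutation p = 0.0252, adjusted p = 0.101 over 12 relations) and 0.44 in WT mice (exact permutation p = 0.275, adjusted p = 0.413), and whether the genotypes differed was not tested. MiR-126a-5p and miR-145a-5p had r = 0.58 (permutation p = 0.0435, adjusted p = 0.0869) and rho = 0.38 (permutation p = 0.172), and r was 0.24 without Dgcr8+/- replicate 2. That relation passed the adjusted threshold without WT replicate 6 (r = 0.71) or Dgcr8+/- replicate 8 (r = 0.65).

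The 3p arm of miR-126a had no relation past the threshold with the mural miRNAs. Its r was -0.22 with miR-143-3p (permutation test, p = 0.525, adjusted p = 0.525) and -0.57 with miR-145a-5p (permutation p = 0.064, adjusted p = 0.0961), with rho of 0.02 and -0.32. Without Dgcr8+/- replicate 2 these were 0.21 and -0.08, so the negative r with miR-143-3p rested on that mouse, as did most of the size of that with miR-145a-5p. Without normalization between arrays they were 0.68, past the adjusted threshold, and 0.36.

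**Figure D5:**
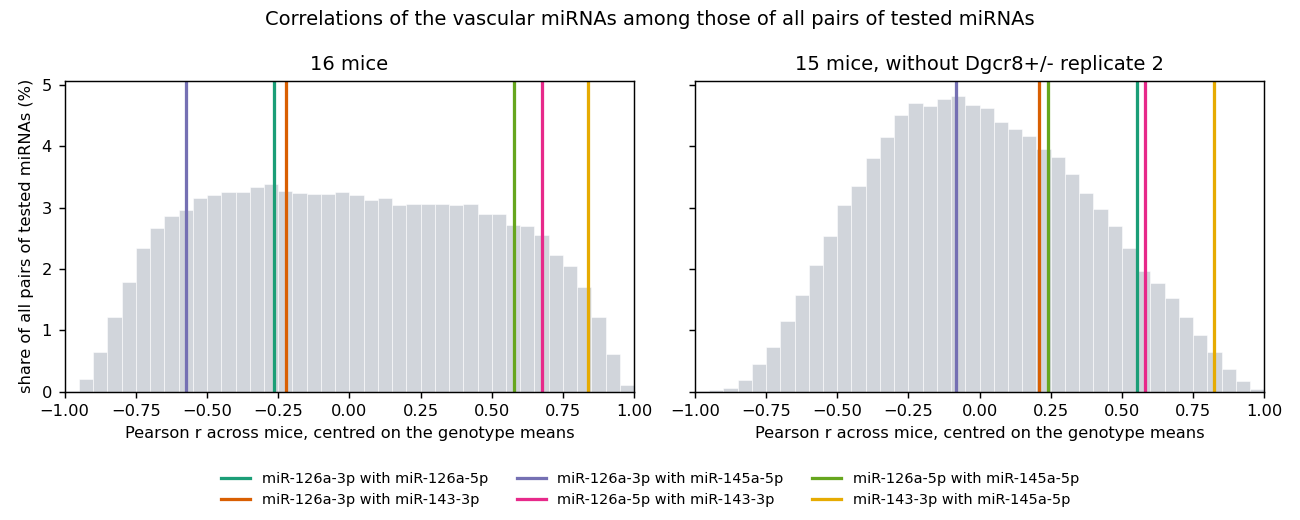
Histogram of Pearson's r (horizontal axis, bins of 0.05, values centered on the genotype means) over all pairs of tested miRNAs as a share in percent (vertical axis), for 16 mice and for 15 mice without Dgcr8+/- replicate 2, with a colored line at each of the 6 pairs of vascular miRNAs. MiR-143-3p with miR-145a-5p lies in the right tail of both panels (0.84 and 0.82), whereas the pairs with miR-126a-3p move to the right when replicate 2 is left out.

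The miRNAs most like each vascular miRNA across the 16 mice were named by the highest r among miRNAs detected on all arrays. For miR-126a-3p they were miR-148a-3p (r = 0.90), miR-148b-3p (0.89) and miR-7a-1-3p (0.89), which were 0.72, 0.68 and 0.68 without Dgcr8+/- replicate 2. MiR-126a-5p was closest to miR-101a-3p (0.84), miR-369-3p (0.76) and miR-181c-5p (0.72), which were 0.69, 0.52 and 0.40 without replicate 2. After miR-145a-5p, miR-143-3p was closest to miR-667-3p (0.69) and to miR-126a-5p (0.68), which were 0.60 and 0.58 without replicate 2. After miR-143-3p, miR-145a-5p was closest to miR-1983 (0.77) and miR-664-3p (0.77), and these were 0.50 and 0.52 without replicate 2.

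Other miRNAs known from vessel walls were compared from a list of 12, of which 10 were tested. For this and the cell type lists, rises and falls are those after quantile normalization, since without it 0 of the 495 miRNAs passed upward (also 0 at an unadjusted p under 0.05 from limma, and 2 by the methods' t-test). The list holds miR-221-3p, miR-222-3p, miR-92a-3p, miR-210-3p, miR-21a-5p, the miR-10 pair and the miR-23, miR-24 and miR-27 families. One of the 10 rose, miR-24-3p, with a mean log2 signal of 10.83 in WT and 10.98 in Dgcr8+/- mice and a log2 fold change of 0.15 (SE 0.05, adjusted p = 0.0107 from limma), so that 1 of 10 passed upward compared to 28.3% of all tested miRNAs. At an unadjusted p under 0.05 from limma 2 were higher and 1 lower, and the methods' t-test called 1 higher and 0 lower after adjustment, as limma did. MiR-21a-5p, a miRNA of many cell types that responds to injury, had the lowest log2 fold change, -0.12 (adjusted p = 0.187 from limma). The median log2 fold change of the 10 was 0.08, that of the 4 tested vascular miRNAs was 0.16, and that of all 495 was 0.04. The summed linear signal of the list ranged from 9688 to 10762 in WT mice and from 9828 to 10651 in Dgcr8+/- mice. MiR-10b-5p was detected on no array.

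The endothelial pair summed to 1529 to 1681 signal units in WT mice and 1394 to 1769 in Dgcr8+/- mice, and the mural list, with 2 of its 4 miRNAs tested, to 119 to 148 and 126.3 to 196. Markers of other cells in the wall were read beside them, and their part in the vascular values was not tested. The counts of these lists are to be read against the 56.2% of all tested miRNAs that passed in either direction. Of 5 miRNAs of ciliated cells (miR-34b, miR-34c and miR-449a) all were tested and 0 passed the limma threshold (1 higher at an unadjusted p under 0.05, and 0 by the methods' t-test after adjustment), with log2 fold changes from 0.15 for miR-449a-5p to 0.35 for miR-34c-5p, a median of 0.29, and summed signals of 541 to 1286 in WT and 868 to 1568 in Dgcr8+/- mice. For the choroid plexus, which hangs in the ventricle, miR-204-5p fell by 0.29 on the log2 scale (adjusted p = 0.0136 from limma) while miR-211-5p had 0.0021, and the summed signals were 533 to 733 and 403 to 624. Among the red blood cell miRNAs, 3 of 4 were tested. MiR-486a-5p fell by 0.66 on the log2 scale (adjusted p = 0.000599 from limma). It was dim, with mean log2 signals of 4.05 in WT and 3.39 in Dgcr8+/- mice, and was detected on 11 of 16 arrays. MiR-451a, the dominant miRNA of red blood cells, had -0.12 (adjusted p = 0.359), and the list's sums were 534 to 892 in WT and 468 to 727 in Dgcr8+/- mice.

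Immune cell miRNAs moved in both directions. Of 5 tested of 6, miR-150-5p rose by 0.12 (adjusted p = 0.0217 from limma) and miR-142a-5p fell by 0.23 on the log2 scale (adjusted p = 0.027), with sums of 385 to 440 in WT and 372 to 443 in Dgcr8+/- mice. The fibroblast and meningeal miRNAs were at or near background, with miR-199a-5p, miR-214-3p and miR-214-5p detected on no array and miR-199a-3p on 10 of 16 (log2 fold change -0.41, adjusted p = 0.0683 from limma), and summed signals of 14.3 to 19.0 and 6.87 to 15.2. All 4 striated muscle miRNAs were tested and 0 passed (0 also at an unadjusted p under 0.05 from limma and by the methods' t-test), with sums of 147 to 188 in WT and 117 to 187 in Dgcr8+/- mice and log2 fold changes from -0.12 for miR-1a-3p to 0.03 for miR-206-3p (median -0.08). Oligodendrocyte miR-219a-2-3p rose by 0.29 (adjusted p = 0.00887 from limma), 1 of 3 tested, whereas miR-338-3p had -0.11 (adjusted p = 0.227), with sums of 8007 to 12063 and 8173 to 11305. Neuronal miR-138-5p rose by 0.21 (adjusted p = 0.00123 from limma) and miR-128-3p fell by 0.11 on the log2 scale (adjusted p = 0.0386), 2 of 5 tested, with sums of 31285 to 34396 and 32124 to 35498.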

How the data were processed

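Total RNA of the LV wall was labeled with Cy3 and hybridized to 1-color Agilent arrays of 1881 mouse miRNAs (56430 spots, 4415 probes, 7 to 30 spots per probe), 1 mouse per array. The authors deposited the scanner output, in which Agilent Feature Extraction (version 10.5.1.1 per the labels, 10.7.3.1 per the file headers) gave each spot a background-subtracted intensity, without normalization between arrays. The deposited table of total intensity per miRNA equaled the scanner's total gene signal (largest difference 0). The summed signal of an array was 21545358 to 29763412 in WT and 18528866 to 23440575 in Dgcr8+/- mice, and the number of arrays limits the precision.

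Here, the 2.67% of spots that the software marked as outliers were dropped, spots were averaged per probe, probes were quantile-normalized as in the study's methods, probes of a miRNA were averaged, values under 1 were set to 1, and log2 was taken. MiRNAs detected on at least 8 of 16 arrays (495, of which 430 on all arrays) were tested with limma 3.58.1 in R 4.3.3. Quantile normalization removes a change shared by most miRNAs. Differences between 2 miRNAs were tested exactly over 12870 groupings of mice, and correlations with 100000 permutations within genotype, or over all 40320 pairings within 1 genotype (scipy 1.17.1, numpy 2.4.6). The scripts were tested on simulated data. As miR-145a-3p was not detected, 6 pairs were compared rather than 10. Named beside the chosen miRNAs were the other products of their loci, the 3 closest miRNAs by r, and the lowest, the highest and any called miRNAs of each list. The miRNAs and lists were chosen with earlier results of these data known. Alternatives changed the scaling, background, spots, probes, floor, filter, test, slide, replicate block and each mouse in turn.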

Additional observations from a re-analysis of the deposited data

Results flagged for a closer look

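Dgcr8+/- replicate 2 lay far from the other 7 mice of its genotype in 3 values. Its miR-126a-3p log2 signal was 10.30, with the others between 10.51 and 10.69. Its miR-126a-5p minus miR-126a-3p was -3.20, with the others between -3.87 and -3.64. Its miR-145a-5p minus miR-126a-3p was -4.62, with the others between -5.68 and -5.18. The gap to the nearest mouse, as a share of the group's range, was 0.538, 0.664 and 0.528, each above Dixon's critical value at the 95% level for 8 mice. Of 20 groups of 8 values examined 3 were marked in this way, and chance marks about 1 in 20, or 1.0 here. The 3 values share miR-126a-3p, so they are not independent. This array also had the lowest hybridization spike-in signal (log2 12.7) and the lowest labeling spike-in signal (log2 9.95) of the 16, and the part of these in the 3 values was not tested.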

How the results depend on the processing

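Without normalization between arrays, values of log2 fold change were -0.45 for miR-126a-3p, -0.35 for miR-126a-5p, -0.25 for miR-143-3p and -0.21 for miR-145a-5p, and 293 miRNAs were lower and 0 higher from limma (unadjusted p under 0.05: 0 higher, and 2 by the methods' t-test). With labeling spike-in scaling they were -0.44, -0.35, -0.24 and -0.20, with 264 lower and 0 higher (0 higher unadjusted by limma or the t-test), compared to 138 lower and 140 higher after quantile normalization. Scaled to the 75th percentile of probes detected on all arrays, where the median of all miRNAs was 0.14 and 62.5% of the calls were upward (50.4% after quantile normalization), miR-145a-5p passed with 0.32. Scaled to the 75th percentile of all probes, miR-126a-3p was -0.087, and miR-126a-5p (0.0067) and miR-143-3p (0.11) lost their calls. MiR-126a-5p also lost its call with the authors' total signal (0.11), all spots kept (0.18), the median of the probes (0.13) and its dimmer probe alone (0.088). MiR-143-3p lost it with all spots kept (0.24), with all mouse miRNAs tested (0.22) and with its dimmer probe alone (0.21). MiR-126a-3p, at 0.0036, was -9.19e-05 with normexp, -0.04 with the slide as a block and -0.0071 with 1 probe. In all other alternatives run for these 4 log2 fold changes, apart from leaving out mice, direction and side of the threshold did not change.

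Among pair differences, miR-145a-5p minus miR-143-3p was 0.039 without normalization and with the 75th percentile of probes detected on all arrays. MiR-145a-5p minus miR-126a-5p was -0.011 with cyclic loess, -0.040 with normexp, -0.016 with the authors' total signal and -0.041 within slide 1. With the authors' total signal the miR-126a arm difference was -0.0031 and miR-145a-5p minus miR-126a-3p was -0.019.

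Without normalization, r was 0.85 for the miR-126a arms, 0.68 for miR-126a-3p with miR-143-3p, 0.36 for miR-126a-3p with miR-145a-5p and 0.65 for miR-126a-5p with miR-145a-5p. All of these but 0.36 passed the adjusted threshold, and a brightness common to an array enters them. With the authors' total signal r was 0.087 for the arms, 0.42 for miR-126a-5p with miR-143-3p, which lost its call, and -0.0033 for miR-126a-5p with miR-145a-5p. With all spots kept it was 0.43 for the arms, 0.27 for miR-126a-3p with miR-143-3p and 0.67 for miR-126a-5p with miR-145a-5p, which passed. With the median of the probes miR-126a-5p with miR-143-3p had r = 0.61 and lost its call. Within slides of 8 arrays the calls were lost at r = 0.69 and 0.72 for miR-126a-5p with miR-143-3p and at 0.88 and 0.90 for miR-143-3p with miR-145a-5p, and on slide 2 r was 0.52 for the arms and 0.14 for miR-126a-3p with miR-143-3p. Over its 9 alternatives miR-143-3p with miR-145a-5p kept r between 0.76 and 0.91.

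Leaving out 1 mouse at a time gave log2 fold changes of -0.015 to 0.041 for miR-126a-3p, 0.13 to 0.18 for miR-126a-5p, which passed in all 16, and 0.18 to 0.27 for miR-143-3p. The miR-126a arm difference was 0.088 to 0.18, miR-143-3p minus miR-126a-3p 0.14 to 0.27 and miR-145a-5p minus miR-126a-5p -0.029 to 0.043. The r was -0.37 to 0.55 for the arms, -0.32 to 0.21 for miR-126a-3p with miR-143-3p, 0.58 to 0.73 for miR-126a-5p with miR-143-3p, 0.24 to 0.71 for miR-126a-5p with miR-145a-5p and 0.82 to 0.86 for miR-143-3p with miR-145a-5p. The labels number mice 1 to 8 in both genotypes and do not say what a number marks, so the main fit did not take the numbers as pairs. Same-numbered mice deviated together in 5 of 8 pairs (r over 0.1) but not in all (r from -0.14 to 0.50). Whether they shared a litter or a day was not tested. Of 16 arrays 5 correlated best with their own number among the 8 arrays of the other genotype. With the replicate number as a block the log2 fold changes were 0.0036, 0.16, 0.22 and 0.16, no call of the 4 changed, and 147 miRNAs were higher and 140 lower. The causes of these changes were not tested.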
